A study of Mus musculus with 12 samples.

Results

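The second week after birth was examined by comparing the 2 arrays of auditory nerve at postnatal day 14 (P14) with the 2 arrays at P7, which are 4 of the 12 arrays of a series that runs from P0 to P21 with 2 arrays at each of 6 stages. All 4 samples came from CBA/CaJ mice, an inbred strain used in hearing research. The mice carried no transgene or deletion that the labels name, received no treatment, and were drawn from both sexes. Stage is the difference that the labels name, and the sex-linked genes and RNA balance given below also differed between the arrays. Per the study's methods, the bony shell, the lateral wall and most of the sensory epithelium were dissected away, and the modiolus, the bony core of the cochlea that holds the auditory nerve, was kept. Tissue from the left and right ear of 1 mouse made 1 sample. RNA was measured on Affymetrix mouse whole-genome arrays, on which each transcript is read by one or more probe sets near its 3' end. The comparison asks what changed in nerve tissue between a stage before hearing and a stage after its onset. Values are log2 expression levels, so that a difference of 1 is a 2-fold change, and the number of arrays limits their precision.

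The auditory nerve is formed by spiral ganglion neurons, which carry signals from the hair cells to the brain stem. Schwann cells wrap these axons in myelin as far as the glial transition zone near the brain stem, beyond which oligodendrocytes take over. Mature axons fire fast, sustained trains of action potentials, for which they cluster sodium channels at nodes of Ranvier and carry fast potassium channels. In the same weeks the tectorial membrane is completed, young axons stop growing, and the bone and cartilage around the nerve are remodelled.

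Before the results, 3 properties of the arrays have to be stated. Most markers of nerve were high on all 4. Mbp, a myelin protein, stood at 14.33 and 14.26 at P7 and at 14.36 and 14.45 at P14. Sox10, a glial transcription factor, lay between 10.83 and 10.87, and Nefl, the light neurofilament, between 13.07 and 13.86. Of further neuronal markers, Nefm lay between 13.09 and 13.80, Snap25 between 12.69 and 13.63, and Gata3 between 10.28 and 11.59. Tubb3 was lower, at 9.12 and 8.47 at P7 and at 9.47 and 9.50 at P14. On P7 replicate 2 Tubb3 was under the array's upper quartile of 8.94. Snap25 was itself called higher at P14 (log2 change 0.795, limma adjusted p = 0.00943). Secondly, sex-linked genes went against the description of 1 mouse per sample. Xist, which is transcribed in female cells, was at 12.55 on P7 replicate 2 and 12.87 on P14 replicate 1, and the Y-linked gene Eif2s3y was high on the same arrays, at 8.89 and 9.07. P7 replicate 1 had Eif2s3y at 9.49 with Xist at 5.51, and P14 replicate 2 had Xist at 13.36 with Eif2s3y at 3.76. The samples are therefore called arrays here, and p-values measure the spread between arrays, which may not be that between single mice. Thirdly, the 3' to 5' balance of Actb control probe sets, a sign of RNA integrity, was 0.81 and 0.91 at P7 and 1.08 and 1.41 at P14 on the log2 scale. Its part in the results was not tested beyond the fit given below, which takes it as a covariate. That fit also holds the stages, so its adjustment comes only from differences between arrays of the same stage. Both P14 balances were above both P7 balances, so balance and stage cannot be told apart between the groups.

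Between P7 and P14, limma called 2065 of 45037 probe sets (4.59%), 1056 of them higher and 1009 lower at P14. A probe set was called when its p, adjusted by Benjamini-Hochberg over all 45037, was under 0.05 and its fold was over 1.5. With 1 probe set standing for each gene, 565 of 18193 genes were higher (3.11%) and 543 were lower (2.98%). The list counts below are to be read against these shares. Before adjustment, 9703 of the 45037 probe sets had a limma p under 0.05, which is given as a rough reference for the unadjusted counts of the lists. It covers every probe set, whereas a list gene is read by 1, the one with the highest average level. The same count over genes alone is not given. The median change over all probe sets was -0.005, as quantile normalization holds it near 0. As this is bulk tissue, fewer cells of a type and less RNA per cell cannot be told apart in any of these changes.

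The count leaned on 1 array. Without P7 replicate 1 there were 1967 calls, but without P7 replicate 2 there were 164. Without P14 replicate 1 there were 1138, and without P14 replicate 2 there were 823. P7 replicate 1 lay nearer to P10 than its partner did: its correlation with the P10 arrays was 0.9926 and 0.9957, against 0.9858 and 0.9918 for P7 replicate 2. In 843 of the 1056 rises P7 replicate 1 was above P7 replicate 2, and in 852 of the 1009 falls it was below it. A total of 145 probe sets, 64 higher and 81 lower, were called with all arrays and also with each of the 4 left out in turn, and 79 of the 90 genes among them were also called with the Actb balance as a covariate, a fit that made 615 calls in all and is called the balance fit below. Of 109 called genes that the naming rule selected, 28 kept their call through all 4 omissions and are described below as kept with any array left out. Of the other 81, 80 lost it without P7 replicate 2, with adjusted p between 0.0520 and 0.354, so that the words rose and fell, for those genes, hold for the full set of arrays. In the balance fit 58 of the 109 lost their call, with adjusted p between 0.0503 and 0.438.

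A gene's value here is that of 1 probe set. Of the 109, 55 had further probe sets, and in 22 of these none of the further ones was called the same way. When all probe sets of a gene were averaged, 13 calls were lost: Ighm, Lfng, Nrarp, Ntn1, Cp, Vcan, Grin3a, Ncam1, Plagl1, Slc4a11, Adamts9, Kcna2 and Thrsp.

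**Figure D1:**
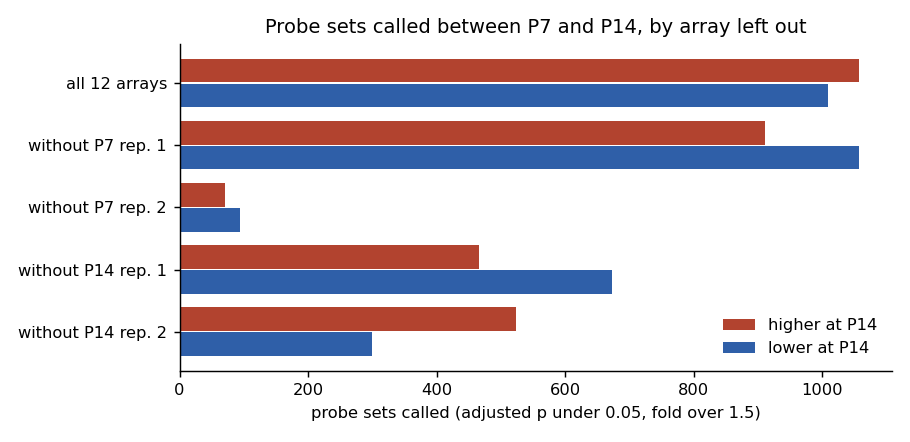
Probe sets called between P7 and P14 on the x axis, for all 12 arrays and with 1 of the 4 arrays left out, shown on the y axis. Red bars count probe sets higher at P14 and blue bars those lower. The counts are 1056 and 1009 with all arrays and drop to 70 and 94 without P7 replicate 2.

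P10 lay between the groups for most of these changes. These probe sets were chosen for a large difference between P7 and P14, which by itself favours a P10 mean between them. The position of P10 was expressed on a scale on which the P7 mean is 0 and the P14 mean is 1. The median position was 0.569 for the 1056 rises (quartiles 0.398 and 0.720) and 0.617 for the 1009 falls (quartiles 0.489 and 0.765). Each P10 array on its own gave medians of 0.662 and 0.459 for rises, so the array chosen moved the value more than the difference between rises and falls. Only 46 rises and 38 falls were beyond their P14 mean at P10 already. In separate comparisons, which share the P10 arrays, limma called 104 probe sets from P7 to P10 (0.231%), 47 of them higher, and 0 from P10 to P14 (0%). In the latter step 3472 probe sets had an unadjusted p under 0.05, the smallest adjusted p was 0.0866, and no other tool was run.

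**Figure D2:**
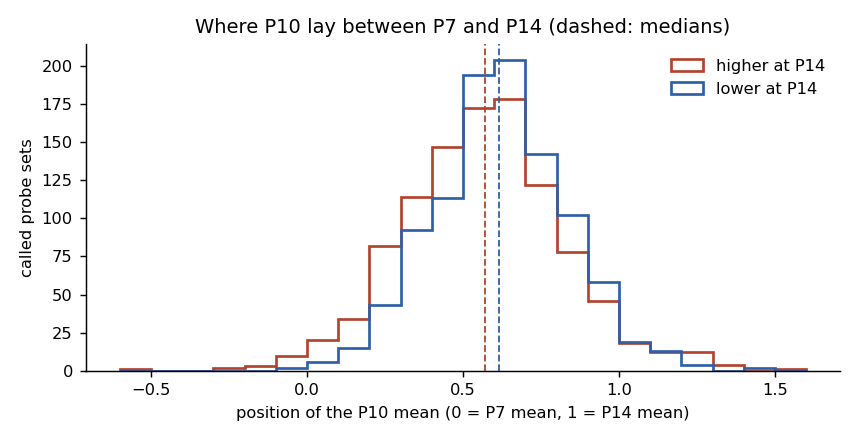
Position of the P10 mean between the P7 mean (0) and the P14 mean (1) on the x axis, for probe sets called between P7 and P14, with their number on the y axis. The red line is for rises and the blue line for falls. The dashed medians are at 0.569 and 0.617.

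The 3 largest falls were in genes of the acellular structures of the inner ear. Tecta encodes alpha-tectorin, a structural protein of the tectorial membrane. It read 10.04 and 11.92 on the P7 arrays and 6.33 and 6.17 on the P14 arrays. It thus fell 26.5-fold (log2 change -4.73, SE 0.55, adjusted p = 0.00343, limma), and the change lay between -5.67 and -3.79 when single arrays were left out. Tectb, which encodes beta-tectorin of the same matrix, fell from 13.83 and 14.04 to 10.10 and 10.54 (12.3-fold, SE 0.42, adjusted p = 0.00334). Oc90, encoding otoconin, the main protein of otoconia, stood at 11.31 and 11.90 at P7 and at 7.96 and 8.47 at P14 (10.5-fold lower, adjusted p = 0.000985). In each of these 3 genes the call was kept with any array left out. Both P14 arrays lay below both P7 arrays, but this adds nothing to the call. The P7 and P14 arrays did not overlap in any of the 2065 called probe sets, nor in 52.1% of all probe sets tested. At P10 Tecta read 6.26 and 6.93, and Oc90 read 9.54 and 9.83. Tectb was at 11.45 on one P10 array and 13.17 on the other. From P7 to P10 the changes of Tecta and Oc90 passed the test (adjusted p = 0.0191 and 0.0170) and that of Tectb did not (0.156), and from P10 to P14 none of the 3 did. Their timing was not compared by a test.

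In the supporting cell and tectorial membrane list, 4 of 16 measured genes were lower and 3 higher, with a median of -0.03. Summed on the linear scale, the list was at 41428 and 49967 on the P7 arrays and at 35314 and 40542 on the P14 arrays. Ucma, a matrix protein of cartilage, rose from 10.50 and 10.44 to 12.01 and 12.49 (3.43-fold, adjusted p = 0.00355), kept with any array left out. Emilin2, an elastic-fibre protein that is also in the cochlear basilar membrane, rose 2.42-fold (adjusted p = 0.0241), which each of the 4 omissions brought over the threshold (0.0587 to 0.152). The counts of 4 lower and 3 higher were 2 and 1 without P7 replicate 2, and 3 and 1 in the balance fit. Of 14 hair cell genes 0 were called by limma, and the median was 0.015. The largest hair cell change was that of Gfi1, a transcription factor of hair cells that blood cells use as well, at 0.58 (log2 scale, adjusted p = 0.0851), and 1 of the 14 had an unadjusted p under 0.05.

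The promoters of the tectorin pair, which fell, are set beside those of 2 potassium channel genes that rose, because each pair moved together in opposite directions. The sequences run 5′ to 3′ around the first listed start and are from RefSeq (build GRCm38.p6). That of Tecta is at chr9:42401641-42401940 on the minus strand, that of Tectb at chr19:55180476-55180775 on the plus strand, that of Kcnc1 at chr7:46396218-46396517 on the plus strand and that of Kcnab2 at chr4:152477500-152477799 on the minus strand. Capitals mark each GC box, searched as GGGCGG on both strands.
Tecta: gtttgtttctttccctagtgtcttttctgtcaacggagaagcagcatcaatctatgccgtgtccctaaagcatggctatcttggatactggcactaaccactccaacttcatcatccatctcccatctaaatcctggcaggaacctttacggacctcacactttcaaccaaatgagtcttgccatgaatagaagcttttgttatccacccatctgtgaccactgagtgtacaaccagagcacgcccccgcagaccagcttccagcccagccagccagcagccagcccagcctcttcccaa
Tectb: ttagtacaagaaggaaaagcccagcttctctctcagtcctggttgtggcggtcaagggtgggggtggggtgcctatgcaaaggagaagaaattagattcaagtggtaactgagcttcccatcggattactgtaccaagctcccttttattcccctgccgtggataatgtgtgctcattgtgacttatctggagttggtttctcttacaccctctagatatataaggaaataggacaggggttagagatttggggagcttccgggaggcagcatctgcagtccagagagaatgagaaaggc
Kcnc1: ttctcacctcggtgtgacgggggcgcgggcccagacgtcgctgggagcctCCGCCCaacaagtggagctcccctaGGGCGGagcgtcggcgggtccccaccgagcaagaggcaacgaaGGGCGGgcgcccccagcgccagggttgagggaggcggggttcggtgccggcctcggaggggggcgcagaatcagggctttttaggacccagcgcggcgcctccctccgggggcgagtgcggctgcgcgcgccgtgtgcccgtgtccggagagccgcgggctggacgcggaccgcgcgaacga
Kcnab2: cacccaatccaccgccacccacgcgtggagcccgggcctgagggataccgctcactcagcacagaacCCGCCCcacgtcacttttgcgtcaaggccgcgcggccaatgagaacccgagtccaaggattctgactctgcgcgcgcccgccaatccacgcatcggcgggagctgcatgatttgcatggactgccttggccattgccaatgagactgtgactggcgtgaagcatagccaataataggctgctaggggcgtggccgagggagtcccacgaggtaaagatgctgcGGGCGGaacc

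Neither tectorin window held a GC box, while those of Kcnc1 and Kcnab2 held 3 and 2. The share of G and C was 50.3% and 48.3% in the tectorin windows and 74.7% and 62.7% in the channel windows. A GC box was found in 35.9% of all 27025 promoters of the table and in 54.1% of the 14368 tested genes that have one. It was found in 53.3% of 452 genes higher at P14 and 68.4% of 414 genes lower at P14. The median share of G and C was 58.7% in the tested genes, 60% in those higher and 61.3% in those lower. The windows shown therefore do not represent these groups, in which the lower genes held a GC box more often. A TATA box, searched as TATAAA on both strands, was in 9.86% of tested genes, 8.85% of those higher and 9.90% of those lower. A CCAAT box, searched likewise, was in 38.2%, 33.6% and 37.0% of the same groups. Among the windows shown it was only in that of Kcnab2, which held 5. These are matches of letters and are not sites of binding.

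Beside the matrix genes, the largest falls included receptors and signalling proteins. P2rx3, an ATP-gated ion channel of sensory neurons, was at 9.45 and 9.60 at P7 and at 6.06 and 6.59 at P14 (9.19-fold lower, SE 0.30 on the log2 scale, adjusted p = 0.00171). The P10 arrays read 6.48 and 7.58. Its 2 further probe sets changed by -1.25 and 0.10 on the log2 scale. Agtr2, the type 2 angiotensin receptor, fell from 7.91 and 8.38 to 5.45 and 5.71 (5.92-fold, adjusted p = 0.0013). Dpp10, an auxiliary subunit of fast-inactivating potassium channels, fell from 8.77 and 9.02 to 6.68 and 6.34 (5.22-fold, adjusted p = 0.0033). Ly6h, a surface protein of neurons, fell 5.52-fold (adjusted p = 0.00175). Cpa6, a secreted carboxypeptidase, fell 6.94-fold and Fras1, a basement membrane protein, 4.69-fold, both with an adjusted p of 0.000985. Lrrc17 fell at least 3.56-fold (adjusted p = 0.00282); both of its P14 arrays lay in the lowest 25% of values, so the fold is given against that limit. The further probe sets of Fras1 and Lrrc17 changed by -0.86 and -0.32 and were not called. All 7 were kept with any array left out. Fxyd7, a regulator of the sodium pump in neurons, fell 6.15-fold (adjusted p = 0.00611), which became 0.0679 without P7 replicate 2. Gcg, the glucagon precursor gene, ran differently: it was 9.23 and 8.69 at P7, 8.71 and 9.66 at P10 and 6.28 and 7.03 at P14 (4.94-fold lower, adjusted p = 0.00777).

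**Figure D3:**
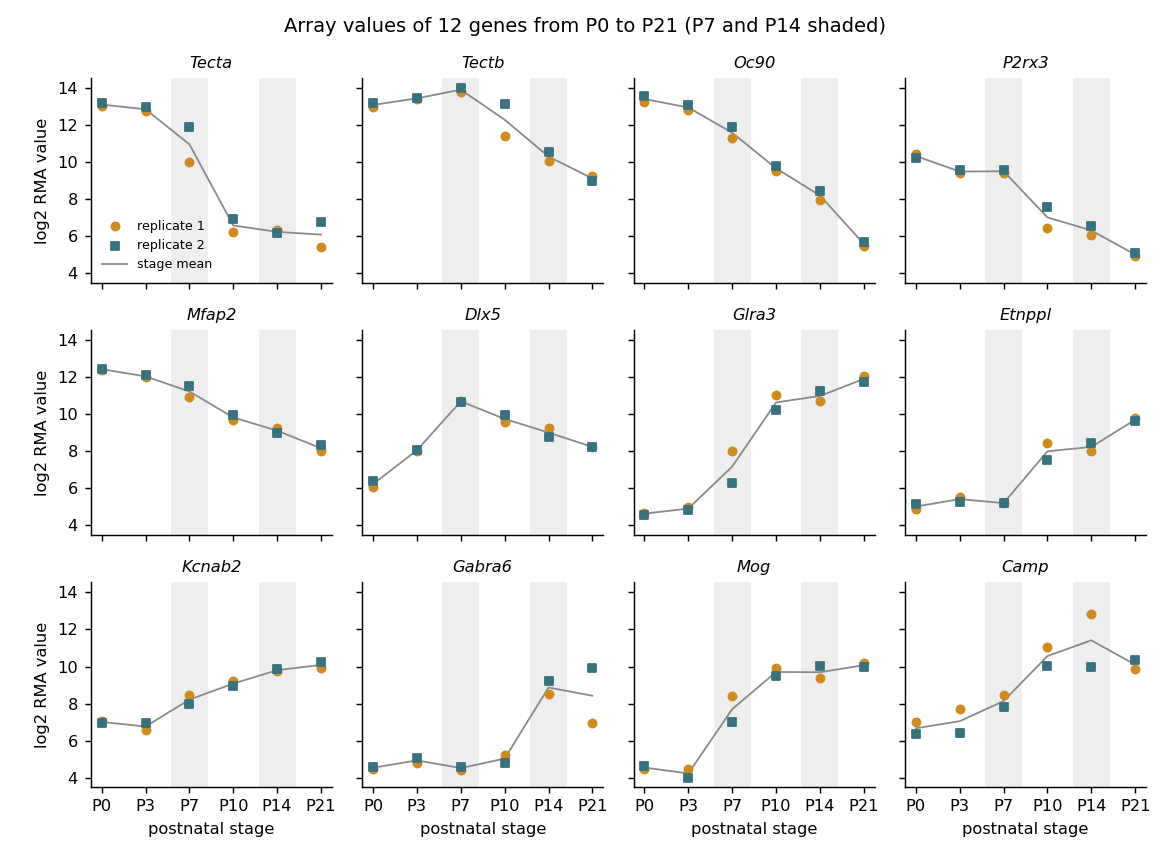
Log2 values of 12 genes on every array from P0 to P21, with the stage on the x axis and P7 and P14 shaded. Circles are replicate 1, squares are replicate 2 and the grey line joins the stage means. Tecta drops between P7 and P10, Gabra6 rises from 4.51 at P7 and 5.02 at P10 to 8.87 at P14, and Camp is at 12.83 on one P14 array and 10.00 on the other.

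The largest rises included subunits of transmitter receptors. Glra3, the alpha-3 subunit of the glycine receptor, was at 8.05 and 6.32 at P7 and at 10.71 and 11.29 at P14. It rose 14.1-fold (log2 change 3.81, SE 0.46, adjusted p = 0.00385), between 2.95 and 4.68 when single arrays were left out, and had reached 11.07 and 10.23 at P10. A second Glra3 probe set changed by 0.10, and the mean of both by 1.96 (adjusted p = 0.00306). Gabra6, the alpha-6 subunit of the GABA-A receptor, is known mainly from cerebellar granule neurons. It was at 4.43 and 4.59 at P7, 5.24 and 4.80 at P10, and 8.50 and 9.23 at P14. A second Gabra6 probe set changed by 1.47 on the log2 scale, and the mean of both by 2.91. On the probe set given here Gabra6 rose at least 13.6-fold, the P7 arrays being in the lowest 25% of values (adjusted p = 0.00994). Without P7 replicate 2 its adjusted p was 0.0814 and without P14 replicate 2 it was 0.0653. In the list of glutamate, GABA and glycine receptors 3 of 22 genes were higher and 1 lower, with a median of 0.30. Gria2, an AMPA receptor subunit, rose 2.12-fold (adjusted p = 0.0429), and Grin3a, an NMDA receptor subunit of young synapses, fell 1.66-fold (adjusted p = 0.0367). Both of the latter calls were lost without P7 replicate 2 (0.321 and 0.294), without P14 replicate 1 (0.115 and 0.0972) and without P14 replicate 2 (0.200 and 0.184). The count of 3 was 1 without P7 replicate 2 or P14 replicate 2, and 2 in the balance fit.

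Gabra6 is 1 of 15 measured markers of cerebellar granule neurons, of which 3 passed the test, Gabra6 among them, and 12 did not. All 15 differences were positive, against a median of -0.03 over all genes. En2, the engrailed factor of the cerebellum and midbrain, rose from 4.78 and 4.64 to 6.0 and 6.35 (at least 2.11-fold, adjusted p = 0.00171), kept with any array left out. Calb2, the calcium buffer calretinin, rose 1.82-fold (adjusted p = 0.0265) and is also in the spiral ganglion list. The count of 3 was 1 without P7 replicate 2 or P14 replicate 2, and 3 in the balance fit. The list's mean level was 7.47 and 7.46 on the P7 arrays and 8.35 and 8.48 on the P14 arrays, and its summed linear level 11198 and 9474 against 19263 and 17827. Neurod1, a neuronal transcription factor of both granule and spiral ganglion neurons, read 6.26 and 5.67 at P7, 6.34 and 6.09 at P10, and 9.61 and 10.16 at P14 (15.1-fold higher, adjusted p = 0.00754, and 0.0819 without P7 replicate 2). At P10 Gabra6, Neurod1 and En2 had covered 0.12, 0.06 and 0.18 of their change. Whether brain stem or cerebellar tissue was attached to the P14 samples was not tested.

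Some genes of fast firing rose. In the list of voltage-gated channels and pumps 5 of 19 were higher and 1 lower, with a median of 0.52. Kcnc1, the Kv3.1 potassium channel of fast-spiking neurons, was at 9.82 and 9.36 at P7 and at 11.39 and 11.36 at P14 (3.45-fold higher, SE 0.24 on the log2 scale, adjusted p = 0.00498, and 0.0575 without P7 replicate 2). The 3 further probe sets of Kcnc1 changed by between -0.04 and 1.07 on the log2 scale, and 1 of them was called higher. The mean of all Kcnc1 probe sets changed by 0.91. Kcnab2, an auxiliary subunit of Kv1 potassium channels, rose from 8.47 and 7.95 to 9.73 and 9.87 (3.01-fold, adjusted p = 0.00453). It was the member kept with any array left out, though its other probe set changed by 0.44 on the log2 scale. Scn8a, the sodium channel Nav1.6 of mature nodes, rose from 9.68 and 9.16 to 11.01 and 10.89 (2.89-fold, adjusted p = 0.0218). Scn4b, the beta-4 sodium channel subunit, rose 2.88-fold (adjusted p = 0.0124), and Kcna2, the juxtaparanodal channel Kv1.2, 2.07-fold (adjusted p = 0.016). The member that fell was Scn9a, the sodium channel Nav1.7, by 1.09 on the log2 scale, named here after its value was seen. The count of 5 became 1 without P7 replicate 2, 2 without either P14 array and 4 in the balance fit.

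The node of Ranvier list gave 4 higher of 15 and 0 lower, with a median of 0.44. Sptbn4, the beta-IV spectrin that anchors nodal channels, rose from 7.85 and 7.19 to 9.11 and 9.21 (3.12-fold, adjusted p = 0.00714). It had covered 0.43 of that change at P10. The other 3 were Scn8a, Kcna2 and Ermn, the last of them a cytoskeletal protein of oligodendrocytes. Without P7 replicate 2 the count of 4 became 0, and without either P14 array or in the balance fit it became 1.

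Structural and synaptic genes of neurons, 27 of which were measured, gave 8 higher and 0 lower, with a median of 0.60. Vamp1, a vesicle fusion protein, was at 10.58 and 9.77 at P7 and at 11.57 and 11.63 at P14 (2.69-fold higher, adjusted p = 0.0126). Syt2, the calcium sensor of fast transmitter release, rose from 9.25 and 9.0 to 10.46 and 10.15 (2.27-fold, adjusted p = 0.0292). Syn1, which tethers synaptic vesicles, rose 2.15-fold (adjusted p = 0.0342), and Thy1, an axonal surface protein, 2.65-fold (adjusted p = 0.0161). Syt2 and Syn1 had covered 0.25 and 0.20 of their change at P10. In all 4 genes P7 replicate 1 read closer to P14 than P7 replicate 2 did. The count of 8 became 0 without P7 replicate 2 or without P14 replicate 2, 2 without P14 replicate 1 and 5 in the balance fit. Nefl, with a change of 0.60, did not pass (adjusted p = 0.0542).

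Spiral ganglion identity genes gave 4 higher of 18 and 0 lower, with a median of 0.48. Lypd1, a surface protein that marks a subtype of these neurons, rose from 9.54 and 9.13 to 10.75 and 10.77 (2.69-fold, adjusted p = 0.00647). Esrrg, an orphan nuclear receptor, rose 1.60-fold (adjusted p = 0.0375). The remaining 2 were Neurod1 and Calb2, which granule neurons also express. Gata3, a transcription factor that maintains these neurons, was at 11.19 and 11.59 at P7 and at 10.28 and 11.07 at P14 and did not pass (adjusted p = 0.153). The count of 4 was 0 without P7 replicate 2, 2 without either P14 array and 3 in the balance fit.

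Genes that young axons use were mostly not called, and those called were mostly lower. Of 35 genes of axon growth and guidance, 7 were lower and 1 was higher, with a median of -0.20. Gap43, a growth cone protein, was at 8.40 and 8.61 at P7 and at 6.81 and 6.99 at P14 (3.04-fold lower, adjusted p = 0.0089), and 0.88 of its fall was complete at P10. Ntn1, the guidance cue netrin-1, fell from 9.28 and 9.34 to 8.50 and 8.33 (1.86-fold, adjusted p = 0.00419), and Dpysl3, a cytoskeletal protein of growth cones, fell 1.74-fold (adjusted p = 0.0164). Nrn1, the neurite-promoting protein neuritin, rose 2.22-fold (adjusted p = 0.0128). The fall of Ntn1 reached an adjusted p of 0.0520 without P7 replicate 2. The count of 7 became 0 without that array, 2 without P14 replicate 2 and 1 in the balance fit.

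Myelin genes were counted separately for the peripheral and the central kind. Of 14 peripheral myelin genes 1 was higher and 1 lower (7.14% each, against 3.11% and 2.98% of all genes), with a median of 0.15. Gjb1, connexin 32 of Schwann cell myelin, rose 2.10-fold (adjusted p = 0.0174). Pmp2, which binds fatty acids in Schwann cell myelin, was at 10.50 and 10.21 at P7, 9.52 and 10.41 at P10 and 8.44 and 8.69 at P14 (3.46-fold lower, adjusted p = 0.0235, and 0.0829 to 0.125 with single arrays left out). Oligodendrocyte genes gave 8 higher of 16 and 0 lower, with a median of 0.67. Mog, on the surface of central myelin, was at 8.41 and 6.98 at P7 and at 9.37 and 10.01 at P14 (3.99-fold higher, adjusted p = 0.0186). Ermn rose 5.37-fold (adjusted p = 0.0215), Mobp, a protein of central myelin, 4.04-fold (adjusted p = 0.0488), and Hapln2, a linker at central nodes, at least 2.35-fold (adjusted p = 0.00642). The other probe set of Hapln2 changed by 0.59 on the log2 scale. P7 replicate 1 was above P7 replicate 2 in all 4 genes, and Ermn read 7.78 and 5.90 on them. Without P7 replicate 1 the change of Ermn was 3.36 on the log2 scale, and without P7 replicate 2 it was 1.48. The count of 8 was 0 without P7 replicate 2 and also in the balance fit, 1 without P14 replicate 2 and 5 without P14 replicate 1. The summed linear level of the list was 21593 and 18442 at P7 and 31160 and 34558 at P14. How much central tissue each sample held was not tested.

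Astrocyte genes gave 2 higher of 13, Gjb6, connexin 30 (1.87-fold, adjusted p = 0.023), and S100b, a calcium-binding protein of glia (1.74-fold, adjusted p = 0.0178), with a median of 0.52. Both genes are also used by cochlear supporting cells or Schwann cells, and both calls were lost without P7 replicate 2 (0.194 and 0.172) and in the balance fit. Etnppl, an enzyme of phospholipid breakdown that is found in astrocytes, was outside that list and rose from 5.19 and 5.23 to 8.03 and 8.46 (8.20-fold, adjusted p = 0.00145). It had covered 0.92 of its change at P10. A second Etnppl probe set changed by 1.22 on the log2 scale, and the mean of both by 2.13. The P7 values of Etnppl lay just above the limit of the lowest 25% of values, 5.1 on both P7 arrays. Of 15 immature Schwann cell genes 5 were lower and 0 higher, with a median of -0.29. Gap43, described above, was the largest of these falls. Ncam1, an adhesion molecule of young glia and axons, fell 1.82-fold (adjusted p = 0.0216; the mean of its probe sets changed by -0.155, adjusted p = 0.483), Fabp7, a fatty acid carrier of glial precursors, 1.68-fold (adjusted p = 0.0324) and Sox2, a progenitor transcription factor, 1.59-fold (adjusted p = 0.0383). The 5 became 0 without P7 replicate 2 and 1 without either P14 array or in the balance fit.

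Further large rises that were kept with any array left out came from metabolic genes. Cox8b, a cytochrome oxidase subunit best known from muscle and brown fat, was at 7.27 and 7.49 at P7 and at 10.38 and 10.86 at P14 (9.45-fold higher, SE 0.37 on the log2 scale, adjusted p = 0.00331). Gpx2, a glutathione peroxidase, rose from 8.64 and 7.77 to 11.24 and 11.48 (8.91-fold, adjusted p = 0.00171). Both continued upwards in value, to 11.73 and 11.08 and to 12.84 and 12.29 at P21, steps that did not pass the test (adjusted p = 0.256 and 0.0596). Among 32 nuclear genes of oxidative phosphorylation 0 were called by limma and 8 had an unadjusted p under 0.05, against 9703 of all 45037 probe sets. Of the 32 differences 30 were positive and the median was 0.13. The largest was that of Ndufa5, a subunit of complex I, at 0.43 (adjusted p = 0.0688). Of 15 skeletal muscle genes 0 were called by limma and 0 had an unadjusted p under 0.05, with a median of 0.14. Of 15 ribosomal protein genes 0 were called by limma and 10 had an unadjusted p under 0.05. All 15 ribosomal differences were negative, with a median of -0.28.

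Some matrix genes of connective tissue fell. Among 25 fibroblast and matrix genes 6 were lower and 0 higher, with a median of -0.30. Mfap2, a glycoprotein of elastic microfibrils, was at 10.93 and 11.56 at P7 and at 9.26 and 8.99 at P14 (4.35-fold lower, SE 0.20 on the log2 scale, adjusted p = 0.00171). Fbn2, the fibrillin of young tissue, fell from 10.85 and 11.02 to 9.65 and 9.31 (2.74-fold, adjusted p = 0.0026), and Mfap4, another microfibril protein, 2.50-fold (adjusted p = 0.00385). These 3 were kept with any array left out. Vcan, the proteoglycan versican, fell 2.88-fold (adjusted p = 0.0125, and 0.125 without P7 replicate 2; the mean of its probe sets changed by -0.48). The count of 6 was 3 without P7 replicate 2 and 4 without P14 replicate 2 or in the balance fit.

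Of 20 collagen genes 2 were lower, with a median of -0.53. Col16a1, a fibril-associated collagen, fell from 10.22 and 10.36 to 9.19 and 9.23 (2.11-fold, adjusted p = 0.00175) and was kept with any array left out. Col18a1, a basement membrane collagen, fell 2.89-fold (adjusted p = 0.00616, and 0.0687 without P7 replicate 2). The count of 2 was 1 without P7 replicate 2, 5 without P14 replicate 1 and 2 in the balance fit.

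Skeletal tissue was mixed. In the cartilage list 3 of 20 were lower and 3 higher, with a median of -0.18. Matn4 and Matn1, matrilins of cartilage matrix, fell 4.36-fold and 3.29-fold (adjusted p = 0.00402 and 0.00614), both kept with any array left out, from 10.64 and 11.44 to 9.10 and 8.73 in the case of Matn4. Prg4, the joint lubricant lubricin, rose from 5.93 and 5.65 to 9.30 and 8.28 (8.0-fold, adjusted p = 0.00505, and 0.0575 without P7 replicate 2) and reached 11.06 and 11.81 at P21. Acan, the aggregating proteoglycan of cartilage, rose 2.13-fold (adjusted p = 0.0404), a call lost under each of the 4 omissions (0.136 to 0.158). The cartilage counts of 3 lower and 3 higher were 2 and 0 without P7 replicate 2, and 1 and 1 in the balance fit. In the bone list 3 of 11 were lower and 0 higher. Dlx5, a transcription factor of osteoblasts, was at 10.74 and 10.68 at P7 and at 9.29 and 8.76 at P14 (3.22-fold lower, adjusted p = 0.00302), kept with any array left out. Ifitm5, an osteoblast membrane protein, fell 3.43-fold (adjusted p = 0.0141) and Smpd3, a sphingomyelinase of mineralising tissue, 1.60-fold (adjusted p = 0.0198). The count of 3 in bone was 1 without P7 replicate 1, P7 replicate 2 or P14 replicate 2, and in the balance fit.

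Osteoclast genes, those of bone-resorbing cells, had the lowest median of all lists but that of sex-linked genes, -1.07 over 14 genes, with 5 lower and 1 higher. The latter was Car2, a carbonic anhydrase that oligodendrocytes also make, at 1.69-fold (adjusted p = 0.0384), named here after its value was seen. Ctsk, cathepsin K, was at 12.47 and 13.09 at P7 and at 11.85 and 10.54 at P14 (3.00-fold lower, adjusted p = 0.028). Mmp9, a gelatinase of osteoclasts and neutrophils, was at 10.70 and 11.56 at P7 and at 9.93 and 8.18 at P14 (4.21-fold lower, adjusted p = 0.0360). Atp6v0d2, a proton pump subunit, fell 3.80-fold (adjusted p = 0.0283) and Ocstamp, a fusion protein, 3.47-fold (adjusted p = 0.0237). The summed linear level was 17743 and 25413 at P7 and 17589 and 9353 at P14, so that P14 replicate 1 was near P7 replicate 1. The count of 5 was 0 without P7 replicate 2, without P14 replicate 2 and in the balance fit, and 6 without either other array. Of 18 metalloproteinases and inhibitors 5 were lower and 0 higher, with a median of -0.44. Mmp11 (2.22-fold), Adamts9 (2.13-fold) and Mmp16 (2.03-fold), which cleave matrix and proteoglycans, had adjusted p of 0.0268, 0.0257 and 0.0147. That count was 0 without P7 replicate 2 and 1 without P14 replicate 2 or in the balance fit.

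Genes of marrow cells were high on P14 replicate 1. In the neutrophil and marrow myeloid list 7 of 14 genes were higher and 0 lower, and all 14 differences were positive, with a median of 2.50. Camp, a granule antimicrobial peptide, was at 8.46 and 7.80 at P7 and at 12.83 and 10.00 at P14 (9.75-fold higher, adjusted p = 0.0371). Ngp, another granule protein, was at 8.67 and 8.30 at P7 and at 13.17 and 10.36 at P14 (9.71-fold higher, adjusted p = 0.0323). Mpo, the peroxidase of young granulocytes, rose 6.41-fold (adjusted p = 0.0449), and Chil3, a chitinase-like protein of myeloid cells, at least 8.94-fold (adjusted p = 0.0430). Without P14 replicate 1 the change of Camp was 1.87 on the log2 scale, and without P14 replicate 2 it was 4.70. The count of 7 was 1 without P14 replicate 1, 1 without P7 replicate 1, 0 without P7 replicate 2, 14 without P14 replicate 2 and 10 in the balance fit. The list's summed linear level was 5509 and 4386 at P7, 22314 and 11881 at P10, and 58855 and 12779 at P14.

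The B cell and erythroid lists stood highest on the same array. In the B cell list 5 of 13 were higher and 0 lower, with a median of 1.23. Vpreb3, a part of the precursor B cell receptor, was at 6.68 and 6.70 at P7 and at 9.33 and 7.67 at P14 (3.51-fold higher, adjusted p = 0.0319), and Ighm, the heavy chain of immunoglobulin M, rose 3.31-fold (adjusted p = 0.0286). Pou2af1, a B cell coactivator outside the list, rose at least 8.28-fold (adjusted p = 0.0147). The B cell count was 0 without P7 replicate 1, P7 replicate 2 or P14 replicate 1, 8 without P14 replicate 2 and 1 in the balance fit. Of 11 erythroid genes 0 were called by limma and 9 had an unadjusted p under 0.05, with a median of 1.23 and Rhag, a red cell membrane protein, at 6.59 and 4.91 on the P7 arrays and 9.24 and 6.94 on the P14 arrays (adjusted p = 0.0702). Prg2, the major basic protein of eosinophils, rose from 6.75 and 6.25 to 10.81 and 9.18 (11.3-fold, adjusted p = 0.0135, and 0.123 without P7 replicate 2). Of 18 macrophage genes 1 was lower, Cd68, a lysosomal protein (2.28-fold, adjusted p = 0.0168, and 0.0938 without P7 replicate 2), and the median was -0.25. The share of marrow in each sample was not tested.

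**Figure D4:**
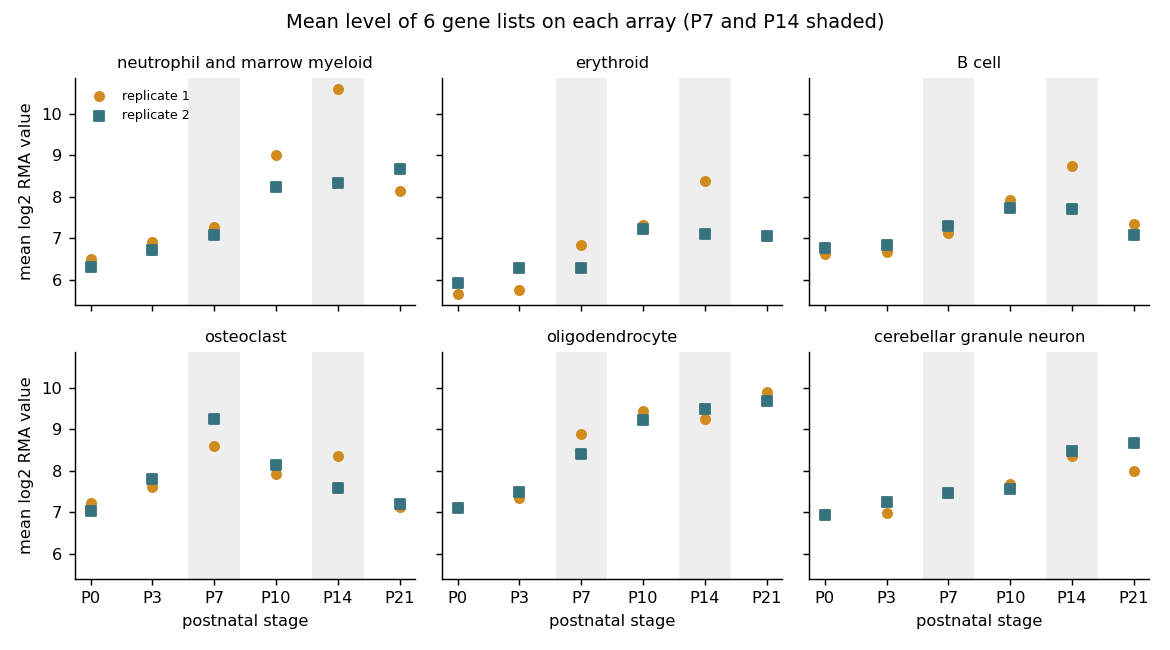
Mean log2 level of 6 gene lists on every array, with the stage on the x axis and P7 and P14 shaded. Circles are replicate 1 and squares replicate 2. P14 replicate 1 is the highest array of the neutrophil, erythroid and B cell lists, and P7 replicate 2 the highest of the osteoclast list.

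Some growth-related genes fell. The shares called lower were 33.3% of imprinted growth genes, 5.13% of cell cycle genes and 8% of Notch genes, against 2.98% of all genes. Of 12 imprinted growth genes 4 were lower and 0 higher, with a median of -0.42. Grb10, an adaptor that restrains insulin signalling, was at 11.26 and 11.70 at P7 and at 10.34 and 9.99 at P14 (2.49-fold lower, adjusted p = 0.00419), kept with any array left out. Its 2 further probe sets changed by -0.725 and -0.355 on the log2 scale and were not called, and the mean of all changed by -0.80. Cdkn1c, a cell cycle inhibitor, fell 2.25-fold (adjusted p = 0.00642), Plagl1, a transcription factor of the imprinted network, 2.21-fold (adjusted p = 0.00656), and Igf2, a fetal growth factor, 2.01-fold (adjusted p = 0.0156). The count of 4 was 1 without P7 replicate 2 or in the balance fit. Of 39 cell cycle genes 2 were lower, both D-type cyclins: Ccnd1 went from 10.86 and 11.25 to 10.07 and 9.97 (2.05-fold, adjusted p = 0.00588) and Ccnd2 fell 1.57-fold (adjusted p = 0.0184). The median of that list was 0.05, but its arrays stood apart: its mean log2 level was 8.30 and 8.56 at P7 and 9.08 and 7.79 at P14. P14 replicate 1, the array on which marrow genes were highest, was above both P7 arrays, and P14 replicate 2 was below both. The cyclin calls were lost without P7 replicate 2 (0.0607 and 0.176), and without P14 replicate 2 the list had 3 genes higher, which it did not have with all arrays. Of 25 Notch genes 2 were lower, Lfng, a glycosyltransferase that modifies Notch (1.68-fold, adjusted p = 0.00848), and Nrarp, an inhibitor of the pathway (1.51-fold, adjusted p = 0.0495), with 0 called without P7 replicate 2 and 1 in the balance fit.

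In the interferon and MHC class I list 5 of 13 were lower and 1 higher, with a median of -0.28. H2-D1 and H2-K1, the classical class I heavy chains, fell from 11.60 and 11.99 to 10.52 and 10.30 (2.61-fold, adjusted p = 0.00381) and from 8.83 and 9.27 to 7.83 and 7.86 (2.31-fold, adjusted p = 0.00371). Both were kept with any array left out. Probe sets of class I genes can read several near-identical genes, so the share of each is uncertain. From P3 to P7 the same probe sets had risen, by 2.69 and 2.12 on the log2 scale. Psmb9, an immunoproteasome subunit, fell 1.82-fold (adjusted p = 0.0483), whereas Ifi27l2a, an interferon-induced gene, rose from 6.52 and 7.62 to 8.62 and 9.03 (3.38-fold, adjusted p = 0.0360), a call that was lost under each of the 4 omissions (0.0639 to 0.197). The count of 5 was 2 without P7 replicate 2 or without P14 replicate 2, and 1 in the balance fit.

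**Figure D5:**
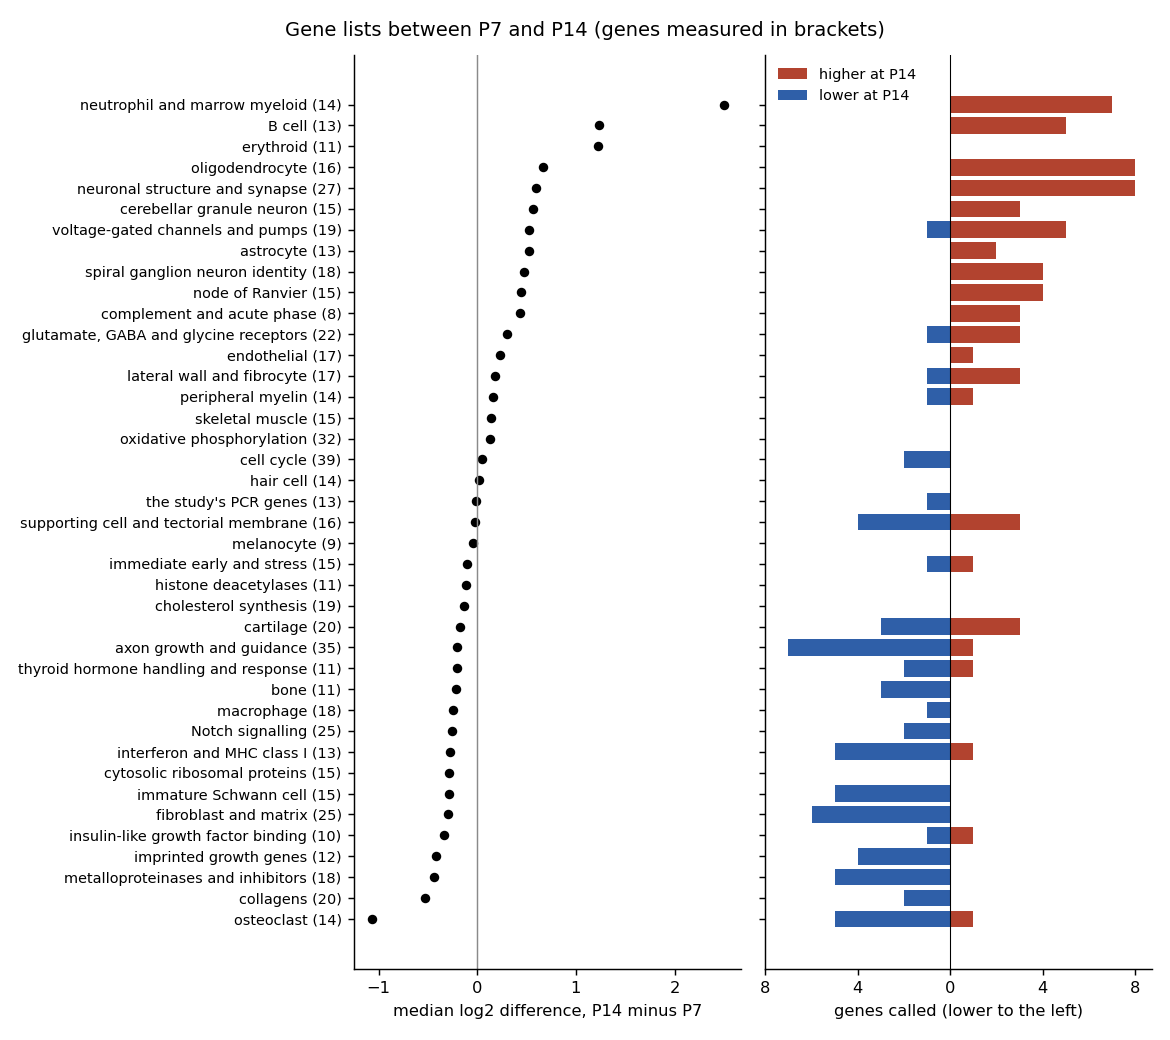
Median log2 difference between P14 and P7 of 40 gene lists (left, points) and the number of their genes called higher (right, red) or lower (right, blue) at P14, with the number of measured genes in brackets. The medians run from -1.07 for osteoclast genes to 2.50 for neutrophil genes, against -0.03 over all genes. Counts of most lists drop when P7 replicate 2 is left out.

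Genes of the lateral wall and its fibrocytes gave 3 higher of 17 and 1 lower, with a median of 0.18. Slc26a4, the anion exchanger pendrin, was at 7.47 and 8.20 at P7 and at 10.06 and 10.22 at P14 (4.94-fold higher, adjusted p = 0.0189, and 0.0669 to 0.104 with single arrays left out). Coch, cochlin, the main matrix protein of cochlear fibrocytes, rose from 13.19 and 12.27 to 14.06 and 14.12 (2.57-fold, adjusted p = 0.017), and Slc4a11, a transporter of fibrocytes, 1.78-fold (adjusted p = 0.0304). Pou3f4, a transcription factor of otic mesenchyme, fell from 11.55 and 11.73 to 10.94 and 10.97 (1.61-fold, adjusted p = 0.0106). The count of 3 was 0 without P7 replicate 2, without P14 replicate 2 and in the balance fit, and 1 without either other array. The list's summed linear level was 58600 and 53564 at P7 and 73678 and 76038 at P14. How much lateral wall was left in each sample was not tested.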

How the data were processed

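RNA from auditory nerve tissue was hybridized to Affymetrix mouse whole-genome arrays. Per the submitters' notes, Expression Console was used with RMA and MAS5, versions not given in the sources used here. The values that the authors deposited are on the log2 scale of RMA, which subtracts background, quantile normalizes the arrays and gives 1 value a probe set. No further normalization was applied, so every result inherits the authors' assumption that arrays share 1 distribution. The table held 0 columns of other samples, and arrays give no read depth. The table lists 45101 probe sets. After removal of 64 controls, 45037 were tested. Symbols came from the platform annotation, updated through the RefSeq gene table (GRCm38.p6): 34945 probe sets have 1 symbol, 932 several and 9160 none, and the latter kinds were counted but not named. Where a gene had several such probe sets, the one with the highest average level represented it.

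The model was fitted with lmFit and eBayes of limma 3.58.1 (R 4.3.3). All 12 arrays entered as 6 groups sharing 6 residual degrees of freedom, and p-values were adjusted by Benjamini-Hochberg. The fit was also run on simulated data with independent noise on each value. Such data hold no deviation shared across an array, so they cannot tell how far the counts depend on one. A stage was dim for a gene when both its arrays lay in the lowest 25% of values. The fold is then given as at least, a limit that holds for the probe set that represents the gene. The 41 lists hold 763 entries, of which 688 matched. Members and lists were chosen with earlier results of these data known. Named genes, a selection of which is described, are the 12 largest rises and 12 largest falls whose arrays do not overlap, placeholder symbols (such as those ending in Rik or starting with Gm or LOC) left out, up to 4 called members per list by size, or else the 1 with the largest change, and the study's 13 PCR genes with Hdac1 and Hdac2. Alternatives were a replicate block, an intensity trend, array weights, fewer arrays, each array left out, a filter on dim probe sets, 2 other normalizations, the mean of a gene's probe sets, the Actb balance as covariate, the methods' t-test and other fold limits.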

Additional observations from a re-analysis of the deposited data

How the results depend on the processing

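The total of 2065 calls was 1104 when only the P7 and P14 arrays were fitted, 615 with the Actb balance as a covariate and 737 at a fold limit of 2. Leaving out P7 replicate 2 and P14 replicate 1 together, the arrays with both Xist and Y-linked genes, an alternative chosen after seeing the data, left 37. The methods' t-test gave 1666 probe sets with an unadjusted p under 0.05 and a fold over 1.5, and 0 after Benjamini-Hochberg. In the same order (4 arrays, covariate, fold of 2, 2 arrays left out, adjusted t-test) the 1056 rises became 655, 366, 424, 15 and 0, the 1009 falls 449, 249, 313, 22 and 0, and the 120 called list genes 66, 51, 79, 6 and 0. With single arrays left out, the total ranged from 164 to 1967, rises from 70 to 911, falls from 94 to 1056 and list genes from 17 to 107. The median position of P10 ranged from 0.459 to 0.662 for rises and from 0.512 to 0.720 for falls. The replicate block gave 2079 calls. The deviations of arrays with the same number correlated at -0.0592 between P7 and P14, 0.317 between P7 and P10 and 0.0147 between P10 and P14, and as not every pair was over 0.1 the numbers were not taken to pair the samples. With the block, 126 probe sets were called from P7 to P10 and 2 from P10 to P14, against 104 and 0 without it. Averaging all probe sets of a gene cost 13 of the 109 named calls. An intensity trend, array weights, the P7, P10 and P14 arrays alone, a filter on dim probe sets, a median shift and cyclic loess gave between 1949 and 2574. No named gene changed direction with its call under any of these. Every alternative that leaves out an array also fits fewer samples. The number of arrays, 2 per stage, limits which changes near the fold limit can be called, and values in the lowest 25% of an array may be background.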

Other observations

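Secreted and plasma proteins included some rises. In the complement and acute phase list 3 of 8 genes were higher and 0 lower, with a median of 0.44. Lbp, the lipopolysaccharide-binding protein, was at 9.13 and 9.02 at P7 and at 10.33 and 10.52 at P14 (2.55-fold higher, limma adjusted p = 0.016), Cp, the copper carrier ceruloplasmin, rose 1.80-fold (adjusted p = 0.0419) and Serping1, an inhibitor of complement, 1.69-fold (adjusted p = 0.0386). The count of 3 was 1 without P7 replicate 1 or P14 replicate 2 and 0 without the other 2 arrays and with the Actb balance as a covariate. Among 10 insulin-like growth factor and binding genes, Igfbp6 rose from 10.03 and 9.29 to 11.41 and 11.24 (3.17-fold, adjusted p = 0.00833) and Igfbp3 fell 2.54-fold (adjusted p = 0.0268). Without P7 replicate 2 these adjusted p were 0.0736 and 0.224. Of 17 endothelial genes 1 was higher, Abcb1a, an efflux pump of barrier vessels (1.80-fold, adjusted p = 0.0334, and 0.231 without P7 replicate 2).

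Thyroid hormone handling gave 2 lower and 1 higher of 11. Crym, which binds thyroid hormone in the cytosol, was at 8.64 and 9.78 at P7 and at 7.46 and 7.38 at P14 (3.46-fold lower, adjusted p = 0.00975, and 0.0562 without P14 replicate 2). Dio2, the deiodinase that activates the hormone, fell from 12.84 on both P7 arrays to 11.86 and 11.92 (1.93-fold, adjusted p = 0.00642, and 0.0679 without P7 replicate 2) after a change of 2.62 from P3 to P7. The counts of 2 lower and 1 higher were 1 and 0 without P7 replicate 2, and both were 0 with the Actb balance as a covariate. Of the study's 13 PCR genes 1, Sox2, was lower (7.69%, against 2.98% of all genes). Gfap, the intermediate filament of astrocytes, was at 6.96 and 6.57 at P7 and at 7.54 and 7.32 at P14 (adjusted p = 0.0728). Of 11 histone deacetylases 0 were called by limma and 3 had an unadjusted p under 0.05, against 9703 of all 45037 probe sets. Hdac1 had the largest difference of the deacetylases, -0.46 (adjusted p = 0.0741). Of 19 cholesterol synthesis genes 0 were called by limma and 6 had an unadjusted p under 0.05, and Fdps, which makes farnesyl diphosphate, had a difference of -0.57 with an adjusted p of 0.0274, a fold under the limit of 1.5. Of 9 melanocyte genes 0 were called by limma and 1 had an unadjusted p under 0.05, with the largest difference that of Pmel, a melanosome protein, at -1.09 (adjusted p = 0.463).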
